A study of Mus musculus with 2 samples.

Results

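The cells described here are 612 cells of the ST-HSC library that carried mRNA of Dntt and little mRNA of neutrophil granule or mitotic genes. Dntt encodes terminal deoxynucleotidyl transferase, the enzyme that adds untemplated bases at the joints of immunoglobulin and T-cell receptor genes. Members were chosen by their measured counts of these genes: per 10000 of its UMIs (unique molecular identifiers, each standing for 1 captured RNA molecule), a member had at least 3 of Dntt, under 20 of Mpo, Elane and Ctsg together, and under 5 of Mki67, Top2a, Cenpf, Kif11, Nusap1, Tpx2 and Prc1 together. The 612 members were 9.21% of the 6648 ST-HSC cells with at least 1000 genes and under 10% mitochondrial UMIs (exact 95% interval 8.52 to 9.93%). The whole series held 9370 such cells. Intervals given here cover counting error only, because there was 1 library per group, cells are not replicates, and no difference has a replicate check. No p-value was computed, and the text gives ratios with their counting intervals.

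Lymphoid priming is the low expression of lymphocyte genes in progenitors that have not yet committed to a lineage. Such cells are known to carry the cytokine receptor Flt3, to begin to transcribe Dntt, Rag genes and unrearranged immunoglobulin heavy chain genes, and to have lost much of the stem cell programme. Terminal transferase is a textbook marker of this stage because it is not made in stem cells or in most mature blood cells.

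The study used wild-type C57Bl6 mice, whose age of 8 weeks is given in the series title. It sorted haematopoietic stem cells (HSCs) out of their bone marrow and made 1 droplet library of short-term HSCs (ST-HSC) and 1 of long-term HSCs (LT-HSC) with the 10x Genomics 3' v2 chemistry. Both sorts took lineage-negative, Sca-1-positive, Kit-positive cells that lacked surface CD34 and carried CD150. The ST-HSC sort took the CD48-positive ones, and the LT-HSC sort took those without CD48 and Flk2, the protein of Flt3. The labels do not give the number or sex of the mice, or whether animals were pooled.

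Promoters of 4 of the 6 marker genes, Dntt, Flt3, Sema3d and Wfdc17, are shown because their mRNA was at higher levels in the members and each has 1 entry in the promoter table. Satb1 has 5 start sites there and is left out for that reason, and Ighm is not matched. Each run is the 250 bases before the RefSeq start site, 5' to 3' on the gene's strand, from the RefSeq table of GRCm38.p6. The positions are chr19:41029025-41029274 (plus strand) for Dntt, chr5:147400490-147400739 (minus) for Flt3, chr5:12382916-12383165 (plus) for Sema3d and chr11:83703806-83704055 (plus) for Wfdc17.
Dntt: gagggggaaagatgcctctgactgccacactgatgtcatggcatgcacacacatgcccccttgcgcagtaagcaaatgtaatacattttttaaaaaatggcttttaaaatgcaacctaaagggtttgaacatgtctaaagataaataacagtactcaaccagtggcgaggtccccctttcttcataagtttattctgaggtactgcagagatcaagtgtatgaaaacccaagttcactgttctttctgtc
Flt3: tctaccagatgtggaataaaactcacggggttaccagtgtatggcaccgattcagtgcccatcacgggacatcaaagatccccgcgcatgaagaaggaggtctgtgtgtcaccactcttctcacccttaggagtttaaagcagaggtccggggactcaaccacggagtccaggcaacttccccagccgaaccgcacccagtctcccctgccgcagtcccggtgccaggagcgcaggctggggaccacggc
Sema3d: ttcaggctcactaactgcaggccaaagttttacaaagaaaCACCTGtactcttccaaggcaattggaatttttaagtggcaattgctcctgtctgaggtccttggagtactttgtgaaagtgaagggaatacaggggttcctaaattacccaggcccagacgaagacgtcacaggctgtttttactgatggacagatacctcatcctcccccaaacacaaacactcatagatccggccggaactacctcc
Wfdc17: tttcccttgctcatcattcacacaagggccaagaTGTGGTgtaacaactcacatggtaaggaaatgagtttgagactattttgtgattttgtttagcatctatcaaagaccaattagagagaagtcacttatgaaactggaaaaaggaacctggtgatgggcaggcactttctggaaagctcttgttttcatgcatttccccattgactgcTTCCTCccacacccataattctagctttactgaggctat
Capitals mark exact matches, on either strand, to 4 short motifs: an E box (CAGGTG), an Ikaros core (TGGGAA), a Runx site (TGTGGT) and a PU.1 core (GAGGAA). The Ikaros and PU.1 motifs share their last 4 letters. The Sema3d window held an E box, and the Wfdc17 window held a Runx and a PU.1 match. The Dntt and Flt3 windows held none of these letters. Over 32851 mouse promoter windows of the same length, 17.2% held the E box, 21.6% the Ikaros core, 14.0% the Runx site and 23.3% the PU.1 core, so a match is a description of the letters and not of a bound site.

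Depth and data quality of the members were close to those of similar cells. The members had a median of 11417.5 UMIs, 3850 genes and 3.49% mitochondrial UMIs, and 7975280 UMIs in all. The library had a median of 13402 UMIs over its kept cells. The cells used most for comparison, called the other low cells, were the 3701 cells of the same library that met the granule and cycle limits but had Dntt under 3, and they had a median of 10329 UMIs and 3663 genes. Of the members, 12 (1.96%) stood among the 400 cells of the library with the highest Scrublet doublet scores. The libraries shared 8 cell barcodes, and none of them was a member.

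Dntt, which chose the cells, ran from 3.01 to 50.02 per 10000 UMIs among the members, with a median of 7.37 and quartiles of 4.79 and 12.9. This was a median of 9 Dntt UMIs per cell. Just inside the threshold, 88 cells between 3 and 4 had a median of 3.55 and 4 UMIs, and just outside it, 158 cells between 2 and 3 had a median of 2.40 and 3 UMIs. Cells near the threshold are therefore separated by about 1 molecule. Of the 985 cells with Dntt of 3 or more, 373 (37.9%) were left out by the cycle limit, and 3 of those were also above the granule limit. The cycle limit had 25 members just under it (4 to 5) and 16 cells just over it (5 to 6), and the granule limit had 3 members from 10 to 20 and no cell from 20 to 40.

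In the LT-HSC library 0 of 2722 cells met the same rule, which allows a share of up to 0.110%. A Dntt UMI was found in 5 LT-HSC cells (0.184%), against 2355 ST-HSC cells (35.4%). Free RNA in droplets adds UMIs to cells that do not express a gene. Erythroid-marker cells of the ST-HSC library served as the measure of it: 46 of 359 (12.8%) had a Dntt UMI at a median depth of 37999 UMIs.

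The RNA of the members was set against the surface gate in the labels. Flt3 mRNA was at 712 CPM (UMI counts scaled to a total of 1000000; 95% Poisson interval 693 to 730) in the members and at 5.50 CPM in the LT-HSC library. Cd34 mRNA, whose protein the gate selected against, was at 356 CPM (343 to 369), against 258 in the other low cells and 29.2 in the LT-HSC library, and 96.7% of members had a Cd34 UMI (23.1% of erythroid-marker cells). Slamf1, which encodes CD150, gave 4 UMIs over the 612 members, or 0.502 CPM (0.137 to 1.28), against 2.03 CPM in the other low cells and 26.5 CPM in the LT-HSC library. Cd48 was at 95.4 CPM against 64.6 (a ratio of 1.48, and of 1.66 without cells that carry markers of other cell types), Ly6a (Sca-1) at 308 against 339, and Kit at 177 against 250. Cd48, Ly6a and Kit mRNA was present as the labelled gate would have it, while the Cd34 and Slamf1 mRNA goes against that gate. Surface protein was not measured in these data.

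Each of the 5 marker genes other than Dntt was detected in a larger share of the members than of the other low cells. To compare cells at 1 depth, each was thinned to 5000 UMIs, which left 596 members and 3496 other low cells and dropped 16 and 205 shallower ones. Flt3 was then detected in 95.3% of members (93.3 to 96.9), 62.6% of other low cells and 5% of erythroid-marker cells. Without thinning these were 99.2% of members and 19.2% of erythroid-marker cells, at median depths of 11417.5 and 37999 UMIs. Satb1 was detected in 85.4% of members against 39.8%, and Wfdc17 in 77.2% against 40.6%. Ighm was detected in 65.6% against 19.2% and Sema3d in 23.8% against 8.95%, and in the erythroid-marker cells these 4 genes lay between 0.882 and 5.59%. At least 3 of the 5 markers had a UMI in 85.2% of members, 27.3% of other low cells and 1.18% of erythroid-marker cells, and all 5 in 12.2% and 2.15% of the first pair. In cells with Dntt of 3 or more that were above the cycle limit and below the granule limit, these shares were 66.9% and 3.83%. Joint detection was thus not particular to the members. Whether the markers met in the same members more often than their single shares give was not tested. On these markers the data do not go against the label of lymphoid-primed cells. The members and the markers were chosen with earlier results of these data known, so this is a description and no test of that label.

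**Figure D1:**
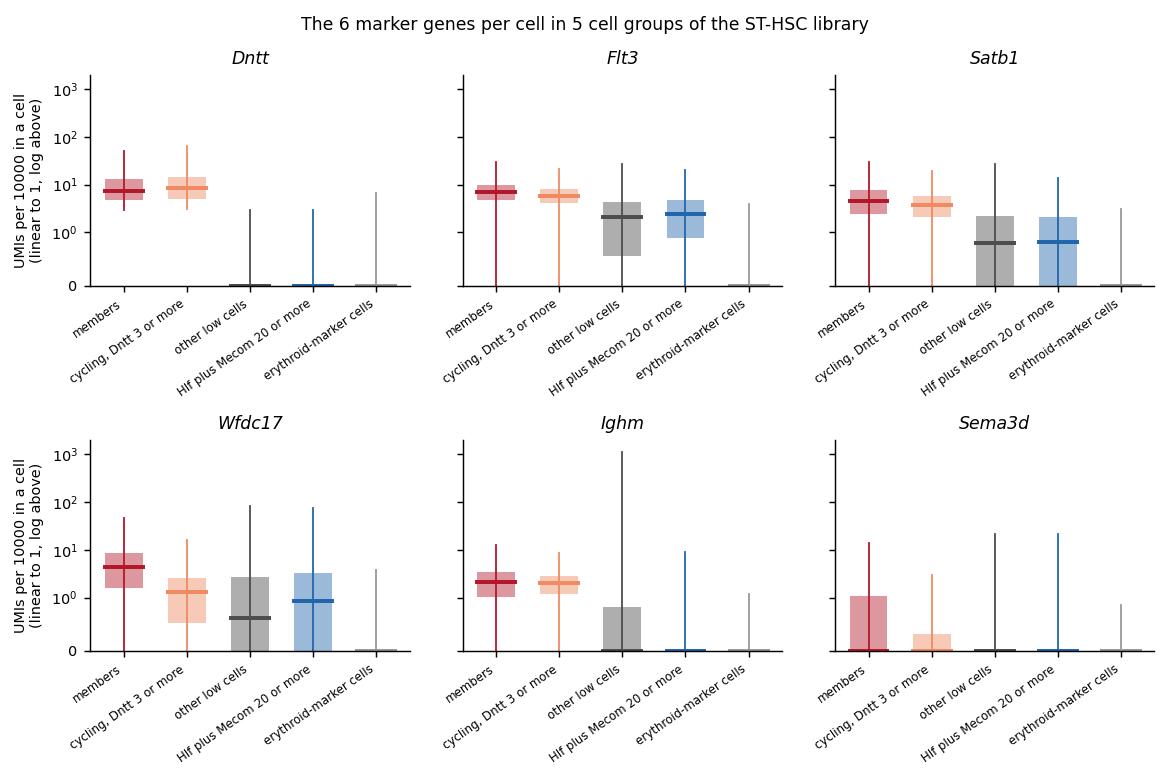
UMIs per 10000 in single cells (vertical axis, linear to 1 and logarithmic above) for the 6 marker genes in 5 cell groups of the ST-HSC library. Thick lines are medians, boxes quartiles and thin lines the full range over cells. The Flt3 median is 7.08 in the members and 2.14 in the other low cells, the Sema3d median is 0 in every group, and 1 other low cell reaches 1137 for Ighm.

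Against all 6036 other cells of the library, 604 of 10519 genes tested (5.74%) were at least 1.5-fold higher in the members and 876 (8.33%) at least 1.5-fold lower. The lower genes in that comparison were led by erythroid genes (Slc25a21, Ermap, Car1, Klf1, Rhd, Rhag) and by cell division genes (Hist1h1b, Hmmr, Kif14), and the latter belong to a programme that the rule used. Against the 3701 other low cells, where the granule and cycle limits are held the same, 303 of 10516 genes (2.88%) were higher and 569 (5.41%) lower, with a median log2 ratio of -0.04 over all tested genes. All ratios from here on are members over other low cells unless another group is named. The other low cells were mixed: 416 of them (11.2%) carried at least 10 per 10000 of natural killer (119 cells), dendritic (214), erythroid (54), megakaryocyte (10), basophil (20) or immunoglobulin light and joining chain (4) markers, against 4 of 612 members (0.654%). Ratios or list counts without these marker-carrying cells are given beside those with them where a gene's side of the 1.5-fold limit changed. The genes that chose those cells (among them Irf8, Siglech, Car1, Pf4, Igkc, Iglc3 and Jchain) were bound to move when the cells were left out, so their second ratio describes the choice only. That comparison had 317 genes higher and 505 lower among 10456, of which 263 and 404 were also called with all cells. T-cell markers were not used to leave cells out. They reached 10 per 10000 in 0.490% of members and 0.567% of other low cells.

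Cytokine receptors and Notch signalling. Flt3, the receptor for a growth factor of early lymphoid and dendritic progenitors, was at 712 CPM in members and 296 in the other low cells, a ratio of 2.40 (2.33 to 2.48). Il1r1, the interleukin-1 receptor, was at 104 against 45.6 CPM (2.27, 2.09 to 2.47). Il7r, the receptor chain for interleukin-7 on which lymphocyte precursors depend, was at 22.6 against 15.1 CPM, a ratio of 1.49 (1.26 to 1.76) with all cells and of 7.199 without the marker-carrying ones. Of 29 measured cytokine receptor genes 2 were higher (Flt3 and Il1r1). In the Notch pathway 3 of 16 genes were higher and 0 lower. Notch1, the receptor that starts T-cell development, was at 94.7 against 37.8 CPM (2.50, 2.30 to 2.73). Maml3, a coactivator of Notch target genes, was at 1320 against 613 CPM (2.15, 2.10 to 2.201), and the ligand gene Jag2 at 9.91 against 6.17 (1.61, 1.23 to 2.07). Jag2 was under the limit without the marker-carrying cells (1.48), at a Dntt threshold of 5 (1.41) and in thinned cells (1.38), which leaves 2 of 16 genes higher in the first of these. The list's median log2 ratio was -0.02, close to that of all genes.

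Transcription and chromatin factors. Satb1, a chromatin organiser needed for lymphocyte development, was at 524 CPM (508 to 540) in the members and 154 in the other low cells, a ratio of 3.41 (3.28 to 3.55). Ikzf1, the gene of Ikaros, was at 639 against 416 CPM (1.54, 1.49 to 1.59), Mef2c at 1060 against 675 (1.57, 1.53 to 1.61; 1.45 without the marker-carrying cells), and the E-protein gene Tcf4 at 404 against 252 (1.60, 1.54 to 1.67). The other E-protein gene measured among the early lymphoid genes, Tcf3, was at 54.5 against 54.1 CPM (1.01, 0.909 to 1.12). Pou2f2, an octamer-binding factor of B cells, was at 160 against 97.3 CPM (1.64, 1.54 to 1.75). Ikzf2 was at 256 against 341 CPM and Foxo1 at 20.9 against 28.9, ratios of 0.751 and 0.724 that did not reach the 1.5-fold limit. Ikzf3, the gene of Aiolos in later lymphocytes, had 4 UMIs in the members and was 26.9-fold lower, but its ratio was 0.672 without the marker-carrying cells. Of the 23 measured genes of Ikaros proteins and their partners, 4 were higher (Ikzf1, Satb1, Mef2c, Pou2f2) and 1 (Ikzf3) lower. Without the marker-carrying cells 4 of 22 were higher, with Ets1 in place of Mef2c, and 0 lower.

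Recombination and end joining. Rag2, a subunit of the recombinase that cuts antigen receptor genes, gave 64 UMIs in the members, 8.02 CPM (6.18 to 10.2), against 0.490 CPM, a ratio of 16.4 (9.95 to 27.9). Its partner Rag1 gave 10 UMIs, 1.25 CPM, and a ratio of 9.39 (3.09 to 31.4). Both were too low on average to enter the counts of genes tested. Rag2 was detected in 4.53% of thinned members, 0.229% of other low cells and 0.588% of erythroid-marker cells (9.48% of unthinned members and 0.836% of unthinned erythroid-marker cells). Of 10 end joining genes, whose products close the breaks that terminal transferase modifies, 2 were higher and 0 lower: Xrcc6, the gene of Ku70, at 105 against 57.3 CPM (1.83, 1.69 to 1.98), and Dclre1c, the gene of the hairpin opener Artemis, at 68.8 against 42.8 (1.61, 1.46 to 1.77).

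Antigen receptor and lymphocyte signalling genes. Ighm, the mu heavy chain constant region, was at 225 CPM (215 to 235) in the members and 163 in the other low cells, a ratio of 1.38 (1.31 to 1.45). A single other low cell held 1842 of the 7324 Ighm UMIs (25.2%), and without the marker-carrying cells the ratio was 4.74. Of 28 genes of B-cell receptor and lymphocyte signalling, 4 were higher: the adaptor gene Blnk (15.8 against 4.21 CPM; 3.75, 2.97 to 4.73), the kinase gene Lck (38.5 against 15.9; 2.42, 2.11 to 2.77), the adaptor gene Lat2 (62.3 against 34.0; 1.83, 1.65 to 2.03) and Tespa1 (174 against 97.2; 1.79, 1.69 to 1.90). Prkcb was 2.48-fold lower, with a ratio of 0.962 without the marker-carrying cells. Without them 6 of the 28 genes were higher, with Grap2 and Cd52 added, and 0 lower. Several defining genes of committed lymphocytes had few or no UMIs in the members, while others of the same lists were well above 0. Pax5 and Cd79a of B cells and Cd3e of T cells had no UMI, which allows up to 3 UMIs over the group. Ebf1 had 3 UMIs, and Gata3 had 62 and was 1.82-fold lower. Tcf7 gave 27 UMIs and Bcl11b gave 14, in 5 and 3 cells, and Tcf7 had a ratio of 0.412 with all cells and of 2.12 without the marker-carrying ones. The B-cell receptor subunit gene Cd79b gave 295 UMIs in 237 members (37.0 against 29.5 CPM), and Nkg7, a granule protein gene of natural killer cells, 730 UMIs in 354 members (91.5 against 102 CPM). Neither reached the 1.5-fold limit.

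Across the early lymphoid list as a whole, 14 of 29 measured genes were higher, 1 was lower and 14 were neither, with a median log2 ratio of 0.58 against -0.04 over all genes. Without the marker-carrying cells 16 of 28 were higher and 0 lower, with a median of 0.70. Ccr9, a chemokine receptor of thymus-seeding cells, was at 14.2 against 7.53 CPM, a ratio of 1.88 that was 4.55 without those cells. Btla moved from 1.10 to 3.70 and Ets1 from 1.23 to 1.94 in the same way. The count of 16 and 0 rests in part on the CPM filter, a mean of both groups of at least 5. Without the marker-carrying cells Ikzf3 (0.507 against 0.754 CPM) fell below it and left the count. Il7r (22.8 against 3.17 CPM), Blnk (16.0 against 3.32) and Ccr9 (12.9 against 2.84) passed it there only through their level in the members. Cd27 (1.31), Bcl11a (1.32), Hhex (1.06) and Il2rg (1.05) did not reach the limit with all cells. The list was drawn up with these data known and shares its markers with the choice of cells, so its count is a description and not independent evidence of a direction.

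Among genes that reached 20 CPM in either group, the largest ratios belonged to genes outside the marker set. Cmah, which makes the N-glycolyl form of sialic acid, was at 74.4 CPM (68.5 to 80.6) in the members, 4.16 in the other low cells and 1.69 in the LT-HSC library, a ratio of 17.9 (15.1 to 21.2). Arpp21, known as a thymus and brain phosphoprotein gene, was at 145 against 8.84 CPM (16.4, 14.6 to 18.5) and at 0.572 in the LT-HSC library. Slc18a1, a vesicular amine transporter gene, was next among them at 24.1 against 3.56 CPM (6.76), then AA467197 at 49.7 against 8.97 (5.53) and the RNA-sensing receptor gene Tlr7 at 20.2 against 4.07 (4.95). Il12a, a cytokine subunit gene, was at 109 against 22.9 CPM (4.75, 4.33 to 5.20). Actn2, Cd33, Ppm1e, Ddx4, St8sia1, Fgf13 and Cnn3 had ratios between 2.93 and 4.33. These 13 genes and Satb1 all had ratios of at least 1.5 without the marker-carrying cells. Cmah was detected in 20.8% of thinned members, 1.54% of other low cells and 0.588% of erythroid-marker cells, and Arpp21 in 35.2%, 3.38% and 1.47% (unthinned, 30.2% and 52.1% of members and 5.01% and 5.57% of erythroid-marker cells). Cmah spans chr13:24327404-24477377 and Arpp21 chr9:112065091-112235938 in GRCm38 with GENCODE M21, where Dntt spans chr19:41029275-41059525.

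Sema3d and Wfdc17 were also higher in the members than in the other low cells, but along Dntt, as given below, they did not follow Flt3 and Satb1. Sema3d, a secreted semaphorin, was at 69.7 against 26.0 CPM (2.69, 2.42 to 2.97) and had 0.0155 CPM in the LT-HSC library. Wfdc17, a small secreted protein with a whey acidic protein domain, was at 555 against 232 CPM (2.39, 2.31 to 2.48), and its neighbour in the family Wfdc18 at 49.4 against 19.5 (2.53, 2.24 to 2.86). Reads of Wfdc17 and Wfdc18, and of the immunoglobulin, histone and class II histocompatibility families named here, may be split or shared between like copies by the counting.

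**Figure D2:**
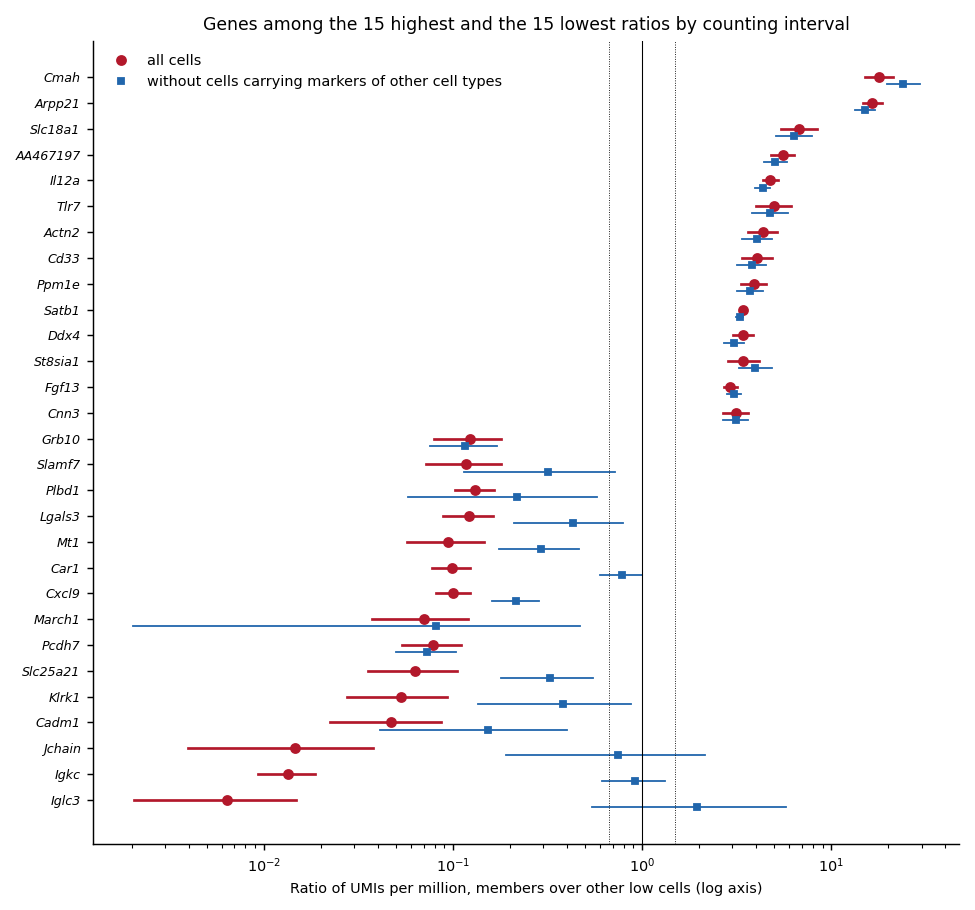
Ratio of CPM in members to CPM in other low cells (logarithmic horizontal axis) for genes among the 15 highest and the 15 lowest, with 95% counting intervals, over all cells (circles) and without cells carrying markers of other cell types (squares). Dotted lines are the 1.5-fold limits. The high ratios stay close together in both sets, while, of the genes that chose the cells left out, Iglc3 goes from 157-fold lower to a ratio of 1.94 and Car1 from 10.2-fold lower to 0.778.

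Stem cell genes were lower in the members. Of 29 measured, 19 were lower, 1 higher and 9 neither, with a median log2 ratio of -0.81 (21 lower, 0 higher and a median of -0.86 without the marker-carrying cells). Hlf, a transcription factor of stem cells, was at 406 CPM (392 to 420) against 654, 1.61-fold lower (1.56 to 1.67), and Mecom at 664 against 1033 (1.56-fold lower, 1.51 to 1.60). Both lay near the limit: at a Dntt threshold of 2 their ratios were 0.680 and 0.681, and Mecom had 0.677 in cells of at least 10000 UMIs, which are not called. Procr, the surface marker EPCR, was at 12.7 against 42.2 CPM (3.34-fold lower, 2.73 to 4.12). The ion channel gene Trpc6 was 6.14-fold lower (5.04 to 7.57), Esam 5.37-fold, Tie1 5.03-fold and Fgd5 4.77-fold. Hoxa9, which is also active in lymphoid progenitors, was the gene that was higher, at 202 against 127 CPM (1.59, 1.499 to 1.68; 1.44 without the marker-carrying cells). Stem cell RNA was still present: 63.6% of thinned members had an Hlf UMI (79.7% of other low cells, 8.24% of erythroid-marker cells; unthinned 77.3% of members and 25.6% of erythroid-marker cells), and 73 members (11.9%) had at least 20 per 10000 of Hlf plus Mecom, against 36.4% of the other low cells. Of 15 quiescence genes 1 was lower, the cyclin-dependent kinase inhibitor gene Cdkn1c (4.89 against 13.4 CPM, 2.73-fold lower, 1.98 to 3.88).

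Natural killer, dendritic and class II histocompatibility genes were mostly lower with all cells, and many of these differences were absent without the marker-carrying cells. Among 11 natural killer and innate lymphoid genes 8 were lower and 1 higher (2 lower and 1 higher of 7 without those cells). Among 15 dendritic cell genes 9 were lower and 3 higher with all cells. Leaving out the genes of that list that chose the marker-carrying cells, 6 of 12 were lower and 3 higher with all cells, and 0 lower and 5 higher of 8 without those cells (Ly86, Cox6a2, Ccr9, Irf7 and Tlr7). Part of that change came from the CPM filter. Batf3 (0.507 against 1.18 CPM) and Clec9a (0.380 against 0.553) fell below it and left the count. Cox6a2 (13.7 against 0.478 CPM), Ccr9 (12.9 against 2.84) and Tlr7 (20.4 against 4.30) passed it only through their level in the members. Irf8, a factor of dendritic and monocytic cells and one of the genes that chose those cells, was at 48.1 against 111 CPM with all cells, 2.30-fold lower. Cox6a2, a cytochrome oxidase subunit gene of plasmacytoid dendritic cells, was at 13.5 against 1.22 CPM (11.1, 7.92 to 15.6) and had a ratio of 28.6 without them, while Siglech, the surface marker of that cell type, had 2 UMIs in the members. Of 10 class II histocompatibility genes 7 were lower with all cells and 0 without those carriers. H2-Ob, an inhibitor of peptide loading, was the 1 higher gene of that list, at 69.6 against 32.8 CPM (2.12, 1.92 to 2.34).

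Iglc3, Igkc and Jchain were 157-, 74.7- and 68.2-fold lower in the members, but 1 other low cell held 98.9% of that group's Iglc3 UMIs. The ratios without the marker-carrying cells were 1.94, 0.911 and 0.747. Pcdh7, a protocadherin, was 12.8-fold lower (9.09 to 18.6) and Grb10, an adaptor of growth factor receptors, 8.16-fold lower (5.54 to 12.5). Their ratios of 0.0732 and 0.116 without those cells were as low as with them. Of 10 megakaryocyte genes 6 were lower in both sets, among them Pf4 (4.89 against 28.01 CPM, 5.73-fold lower). Of 21 neutrophil and monocyte genes outside the rule 4 were higher (Clec12a 2.57, Cst7 2.08, Cebpa 1.82 and Plac8 1.67) and 2 lower (Ly6c2 0.188 and Ccr2 0.179). Without the marker-carrying cells 0 were lower, with Ly6c2 at 0.975 and Ccr2 at 1.05. The defining B, T and erythroid markers summed to 2.63, 13.4 and 15.5 CPM in the members, against 2.92, 24.3 and 111 CPM in the other low cells.

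Cell division genes outside the rule differed little from the other low cells, which met the same cycle limit. Of 29 S phase genes and 12 D cyclin and G1 kinase genes 0 passed the limit in either direction. Mycn, 1 of those 12, was lower without the marker-carrying cells (0.627). Of 16 G2 and M phase genes Ccnb2 (1.504) and Aurka (1.65) were higher. Ccnb2 was under the limit at Dntt thresholds of 2 (1.37) and 5 (1.39), and in cells of at least 10000 UMIs both were under it (1.14 and 1.42). In cells thinned to 5000 UMIs the S phase genes summed to a median of 5 UMIs in the members, 4 in the other low cells and 15 in the cycling Dntt cells, and the G2 and M phase genes without those of the rule to 3, 2 and 25. The S phase sum had an upper quartile of 13 and a maximum of 40 in the members, and 11 and 45 in the other low cells. The quartiles in the cycling Dntt cells were 6 and 24, so the ranges overlapped and the rule did not leave out all cells with S phase mRNA. Of the members 273 (44.6%) had no UMI of any of the 7 cycle genes in the rule.

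A few further lists had members past the limit, and others had none. Among 15 chemokine, cytokine and NF-kB genes 5 were higher: Ccl3 (97.9 against 49.9 CPM; 1.96, 1.81 to 2.13), Ccl9 (1.82), Tnf (1.78), Cxcl2 (1.74) and Ccl4 (1.57). Nfkb2 was 1.54-fold lower, and the list's median log2 ratio was 0.07. Nfkb2 was not called without the marker-carrying cells, where 5 of 15 were higher and 0 lower, with a median of 0.17. Among 26 adhesion and homing genes 4 were higher (Ccr9, Emb, Itgal and Pecam1) and 7 lower, among them Esam and S1pr1, the receptor for cell exit into blood (5.52 against 14.5 CPM, 2.64-fold lower). Without the marker-carrying cells 4 of 25 were higher and 4 lower. Interferon response genes had 2 of 22 higher and 0 lower, with a median of -0.12, and 0 of 12 class I histocompatibility and 0 of 13 mitochondrially encoded genes passed the limit. Of the 22 interferon genes 3 were higher without the marker-carrying cells, with Irf7 added, and 1, Ifitm1 (0.656), was lower. Gimap4, Gimap5 and Gimap8 of 7 Gimap genes were lower, and Gimap4 went from a ratio of 0.369 to 0.713 without the marker-carrying cells.

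**Figure D3:**
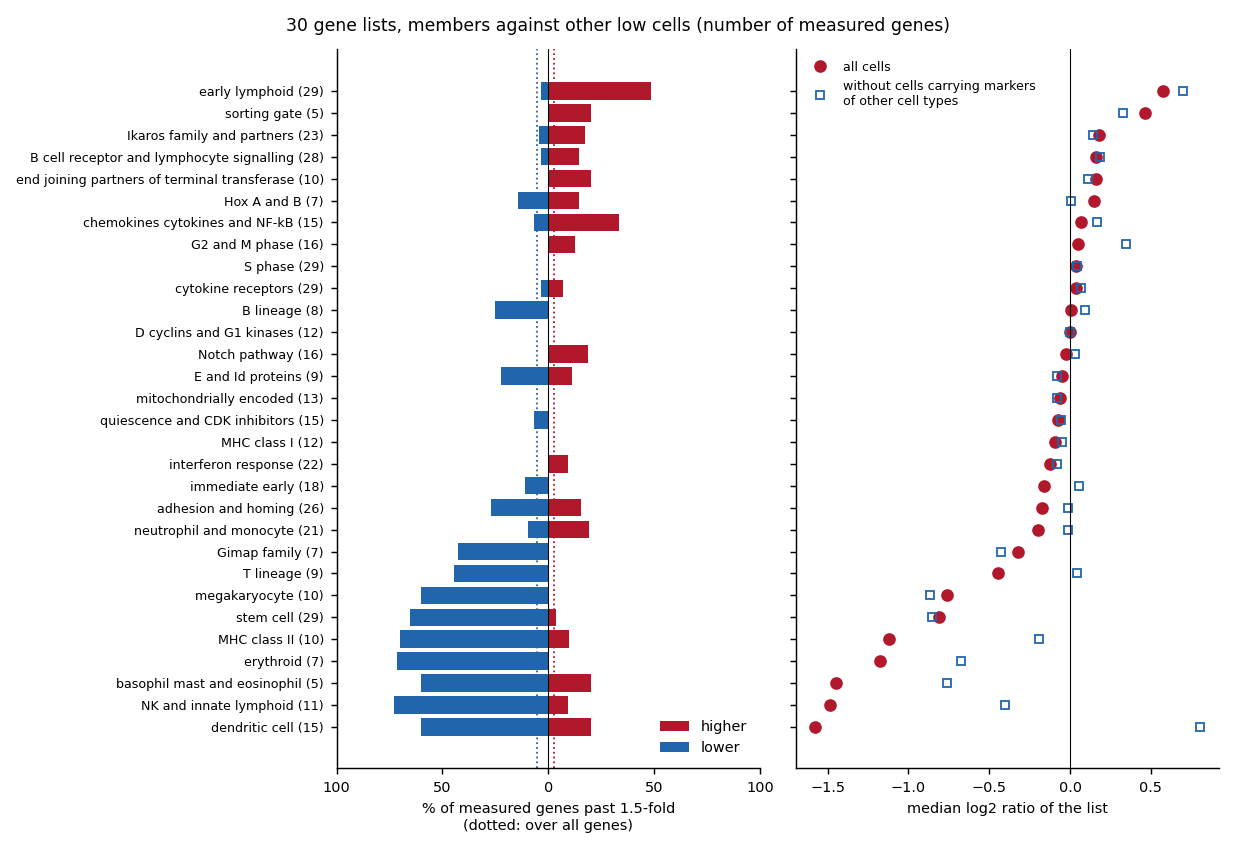
For 30 gene lists, the percentage of measured genes at least 1.5-fold higher or lower in members than in other low cells (left; dotted lines mark the 2.88% and 5.41% of all genes), and the median log2 ratio with and without cells carrying markers of other types (right). The early lymphoid list has the highest median with all cells (0.58), and the dendritic list goes from -1.58 over 15 measured genes to 0.81 over the 9 still measured (0.12 over the same 15).

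Levels were also set out along Dntt. Cells below the granule and cycle limits were placed in 5 bins of Dntt per 10000: 0 (2923 cells), above 0 to 3 (778), 3 to 6 (235), 6 to 12 (203) and 12 or more (174). The last 3 are the members. Cmah went 2.41, 8.87, 26.4, 70.5 and 158 CPM through the bins, and within the members it was 5.99-fold higher in the last bin than in the first (4.73 to 7.65). Arpp21 went 4.67, 20.04, 59.5, 126 and 310 CPM, and Satb1 114, 260, 416, 532 and 693. The same order held for Flt3 (246 to 851), Notch1 (32.5 to 126), Maml3 (535 to 1614), Rag2 (0.336 to 15.5), Blnk (3.21 to 29.0), Il12a (16.6 to 157) and Xrcc6 (53.9 to 149). The bins are cut on Dntt, which the rule used, and most of these genes were named for their ratio across its threshold, so a higher level in the member bins was fixed by that choice and is given as a description.

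Several stem cell genes ran the other way. Mecom went 1050, 988, 839, 627 and 418 CPM through the bins, and Hlf 666, 623, 538, 366 and 235. Trpc6 went from 86.0 CPM to 2.42 and Procr from 46.7 to 7.25. The share of cells with Hlf plus Mecom at 20 or more was 38.8, 27.5, 19.1, 10.8 and 3.45%. The 603 genes followed were the named genes and those of the gene lists, some of them picked for their ratio across the Dntt threshold. Of these, 50 were higher at every step, 58 were lower at every step and 495 did neither. The order was not worked out over all tested genes, so these counts have no background share and show no excess. Wfdc17 was highest in the fourth bin (193, 338, 570, 605 and 471 CPM), as was Sema3d (18.5, 46.1, 63.6, 86.9 and 59.0). Il7r was at 5.86, 18.8 and 54.6 CPM in the member bins, but at 19.5 CPM in cells with no Dntt. The bins share 1 library, the median depths lie between 9836 and 12581 UMIs, and the order is a description.

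**Figure D4:**
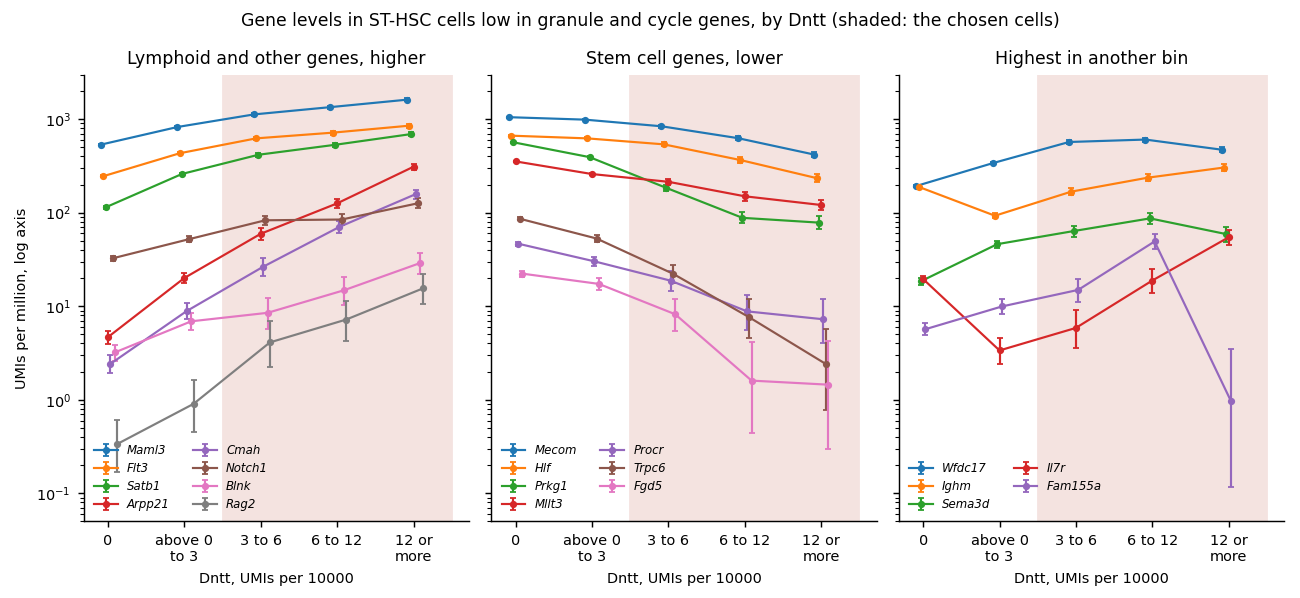
CPM (logarithmic axis) with 95% counting intervals in 5 bins of Dntt per 10000 UMIs, for cells low in granule and cycle genes. The shaded bins are the members. Lymphoid and other genes climb on the left, stem cell genes decline in the middle, and the genes on the right peak in the fourth bin or, for Il7r and Ighm, dip in the second.

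Of the 3 like groups in the library, the first was the 370 cells with Dntt of 3 or more that were above the cycle limit and below the granule limit, with a median of 20004.5 UMIs. Of 10327 genes 662 (6.41%) were higher in the members and 647 (6.27%) lower. Besides the cell division genes fixed by the rule, such as Kif14 (109-fold lower) and Hmmr (71.4-fold), the members had more Wfdc17 (555 against 178 CPM, 3.11-fold), Tcp11l2 (31.8 against 7.198, 4.42-fold) and Ltb, the lymphotoxin beta gene (162 against 57.8, 2.80-fold). Dntt, held to the same threshold in both groups, was at 963 and 1068 CPM. Some other lymphoid genes were also at similar levels in both: Cmah at 74.4 and 52.7 CPM, Arpp21 at 145 and 169, Rag2 at 8.02 and 11.2, Satb1 at 524 and 432 and Ighm at 225 and 212. The markers Wfdc17 and Sema3d were not, with Sema3d at 69.7 against 24.8 CPM.

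The second was the 1349 cells with Hlf plus Mecom at 20 or more and Dntt under 3, which are part of the other low cells. Of 10515 genes 350 (3.33%) were higher in the members and 882 (8.39%) lower. Cmah was 65.7-fold higher (41.2 to 112), Arpp21 20.1-fold, Il7r 17.9-fold and Ighm 6.32-fold (225 against 35.6 CPM). Trpc6 was 9.42-fold lower and the kinase gene Prkg1 5.71-fold (127 against 725 CPM). Prg2, an eosinophil granule gene, was 53.4-fold lower, but 8 of the 1349 cells held all 532 of its UMIs and 1 cell held 66.0%. Flt3 was at 712 against 332 CPM and was detected in 66.9% of these thinned cells. The third was 180 cells with granule genes from 20 to 200 and Dntt under 3, with a median of 29373.5 UMIs. There 3176 of 10208 genes (31.1%) were higher and 1630 (16%) lower, with a median log2 ratio of 0.20. Arpp21 was 96.0-fold and Fgf13 22.6-fold higher in the members, and Ms4a3 was 307-fold lower. Prss34, a protease gene of basophils, was 721-fold lower, but 9 cells held all 1434 of its UMIs in that group. Without cells carrying basophil markers (19 of the 180) that group had 2 Prss34 UMIs against 3 in the members, and Ms4a3 was 312-fold lower. The depths of that pair differ most, and the part of depth in these counts was not tested.

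A small set of genes varied widely among the members. The Fano factor, the variance over the mean of thinned counts, had a median of 1.07 over 8978 genes and was above 2 for 148. The highest were Gm42418 (25.3), a gene model that overlaps ribosomal RNA, the chemokine gene Cxcl10 (17.7), Fam155a (13.1) and Malat1 (11.4). Others among the 15 highest were Cd74, Iigp1, Cst3, Angpt1, Cxcl2, Hbb-bt, Wfdc17, Arpp21, Hlf and Gm4951. Some of these rest on few cells: 10 members held 95.5% of Fam155a UMIs and 76.8% of Cxcl10. Of the 12 members with at least 5 Cxcl10 UMIs, 11 had Iigp1 (91.7%, against 49.3%). In those 12 cells the interferon genes Ifit3, Rsad2 and Ifit1 were at 30.2, 9.22 and 8.37 times their level in the other members. Cxcl9 had no UMI in those 12 cells, but its ratio interval of 0 to 2.21 cannot tell its level from that in the other members. Arpp21 and Hlf vary along Dntt as given above.

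Members with Il7r mRNA differed from the rest. Among thinned members, 45 had an Il7r UMI (7.55%; 10.8% unthinned; 0.588% of thinned and 1.67% of unthinned erythroid-marker cells) and 551 did not, at median depths of 11399 and 11601 UMIs. Thinned counts were used only to split the members, and the ratios use all UMIs of the same cells. Cmah was 4.65-fold higher in the 45 (3.84 to 5.60), Arpp21 3.91-fold, Rag2 3.72-fold (1.90 to 6.85), Dntt 1.96-fold and Satb1 1.71-fold. Wfdc17 (ratio 0.513), Mecom (0.452), Mllt3 (0.453), Hlf (0.567) and Kit (0.645) were lower in them. Tcf7, a T-cell and innate lymphoid factor, gave 23 UMIs in the 45 cells and 1 in the 551 (ratio 300, 48.7 to 12349), and 5 of the 612 members had any. Ly6d, a surface marker of B-cell-biased lymphoid progenitors, gave 7 UMIs in the 45 cells and 4 in the 551. Splitting the members by an Hlf UMI instead (379 with, 217 without) gave the reverse: Mecom 1.99-fold and Procr 2.50-fold higher with Hlf, and Il7r (0.334), Cmah (0.395), Irf8 (0.447) and Arpp21 (0.469) lower. Flt3 moved little in either split (1.28 and 0.945). The genes that define these splits were chosen after values had been seen, and whether the groups are ranges of 1 population or hold separate cell types was not tested.

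**Figure D5:**
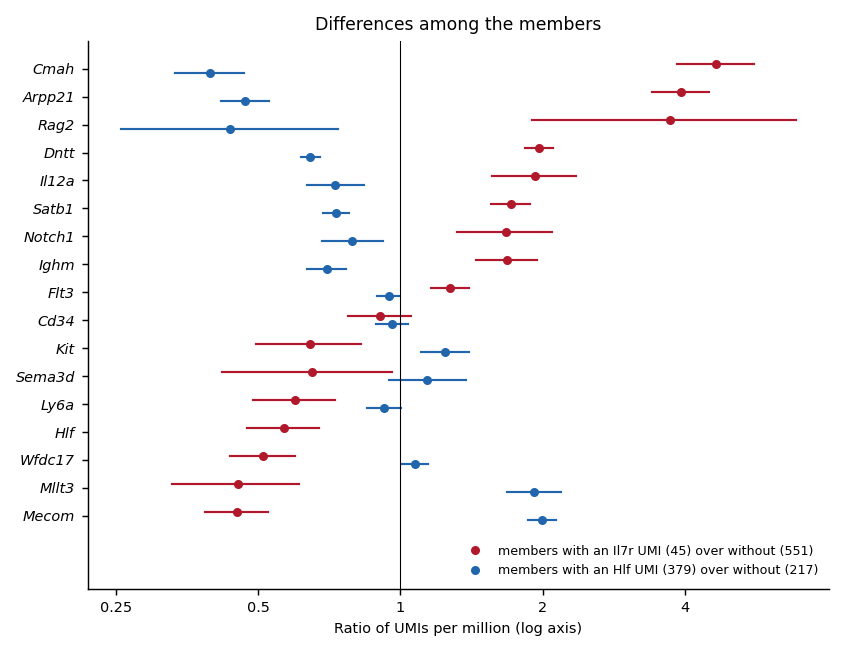
Ratio of CPM (logarithmic axis) between members with and without a UMI of Il7r (45 against 551) or Hlf (379 against 217). Members were split on thinned counts, and the ratios use all their UMIs, with 95% counting intervals. Cmah is highest with Il7r (4.65) and lowest with Hlf (0.395), Mecom the reverse (0.452 and 1.99), and Flt3 is at 1.28 and 0.945.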

How the data were processed

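The deposited values are raw UMI counts, 1 matrix for each library, covering 32285 genes. Counts were made with Cell Ranger 7.2 on mm10 per the submitters' processing notes, and with 7.1.0 per the file headers. The deposited barcodes, 7586 for ST-HSC and 2938 for LT-HSC, held at least 500 UMIs, and 6648 and 2722 were kept. Cells were grouped by per-cell values per 10000 UMIs, and summed counts were scaled by group totals to CPM. Intervals are exact: Poisson for CPM, conditional binomial for ratios and Clopper-Pearson for shares, all at 95%. A count of 0 is given a floor of 3 counts. Genes tested had a mean CPM of both groups of at least 5, and the 11 genes of the rule were left out. Python 3.11.15 with scanpy 1.11.5, numpy 2.4.6 and scipy 1.17.1 was used, and edgeR 4.0.16 for TMM factors as an alternative scaling. The ratio calls were checked on simulated counts. The counts without marker-carrying cells, without the genes that chose them and without basophil-marker cells were added after seeing the data.

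The members and gene lists were chosen with earlier results of these data known. Named were the markers and genes of the rule, the 15 highest and 15 lowest ratios in the comparisons with all other and with other low cells (8 in each like group), ordered by whichever counting bound lay nearer 1 and limited to named genes of at least 20 CPM in a group, up to 4 genes per list with the largest log2 ratio, the genes of the sorting gate, the early lymphoid list and the cell type markers, and the 15 highest Fano factors. Other genes are named where a small count called them or as partners of a named gene, and were chosen after their values were seen. Some items that these rules name are not reported here. Scrublet's automatic threshold called 0 cells, so it did not work, no doublets were removed, and the 400 highest scores at the expected rate of 6.07% serve as an alternative. Gene IDs matched GENCODE M21 (GRCm38) for 32235 of 32285.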

Additional observations from a re-analysis of the deposited data

Results flagged for a closer look

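Dntt was also found outside the kept cells. Of the 938 ST-HSC barcodes with fewer than 1000 genes or at least 10% mitochondrial UMIs, 62 had a Dntt UMI and 26 met the 3 gene conditions of the rule. These 26 had a median of 1994 UMIs, 1214 genes and 15.3% mitochondrial UMIs, and 12 of them were under 1000 genes. All 938 had medians of 991.5 UMIs, 420 genes and 45.9% mitochondrial UMIs. Over the 26, Flt3 was at 866 CPM (649 to 1133), Satb1 at 539 (371 to 757) and Mecom at 948 (720 to 1225), while Wfdc17 gave 2 UMIs and Arpp21 gave 11 (180 CPM, 89.7 to 322).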

How the results depend on the processing

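The share of members, 9.21%, was 11.6% and 6.54% with a Dntt threshold of 2 and 5, 7.55% and 10.3% with a cycle limit of 2 and 10, 10.6% without marker-carrying cells (an alternative added after seeing the data), and 8.68 to 9.60% under the other alternatives. The 604 genes higher than in all other cells became 386 without marker-carrying cells, 1120 at a mean CPM of at least 1 and 317 at 20, and the 876 lower became 1458 and 434 at those filters. Against other low cells the 303 higher became 610 and 156, and the 569 lower 1324 and 215. Other alternatives kept these counts within 1.5 times. Of the 3004 called ratios of named genes over the alternatives, 252 lost their call. TMM and median-of-ratios scaling shifted every log2 ratio by -0.02 against all other cells and by 0.04 against other low cells.

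The log2 ratio of Iglc3 turned to 0.35 and 0.043 without the highest doublet scores (against all other and other low cells). Without marker-carrying cells it was 1.01 and 0.95, that of Cd226 1.92 and 1.38, Irf8 0.36 and 1.004, Jaml 0.87 and 0.78 and Skap1 0.80 and 0.81. Against all other cells alone, Cd74 turned to 0.20, Gimap4 to 0.093, Hbb-bs to 0.49, Prkcb to 0.065, Prss34 to 1.39 and the natural killer list median to 0.065. Against other low cells alone, Ccr2 turned to 0.077, Cd7 to 0.99, Tcf7 to 1.09, Trbc2 to 1.93 and the dendritic list median to 0.12 (list medians here are over the genes measured with all cells). These reversals follow from which cells were left out. No paired analysis was possible because there was 1 library per group and no result comes from a test.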
